A study of Homo sapiens with 6 samples.

Results

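The exons described here are cassette exons of at least 61 and under 500 nt whose introns on both sides are at most 500 nt long, as measured in MDA-LM2 cells after knockdown of a spliceosomal protein. They were taken from the 3 deposited summaries of skipped-exon events by the lengths of the exon and its introns alone, and for each middle exon the event with most informative reads in the 3 pools was kept. Informative reads fit only inclusion or only exclusion of the exon. This gave 2343 of 40658 skipped exons, or 5.76%, in 1586 genes. The 2343 exons cover 1961 separate stretches, because alternative ends of an exon are listed as exons of their own, and such forms share reads.

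MDA-LM2 cells descend from the human breast cancer line MDA-MB-231 and were selected for growth as lung metastases. The groups are 3 libraries with siRNA against SNRPA1 (siSNRPA1), 1 library with siRNA against SNRPB (siSNRPB) and 2 libraries with control siRNA (siCtrl), all from RNA taken 48 h after transfection with Lipofectamine. The series design names 3 siRNAs against SNRPA1 and 2 against SNRPB and does not tie them to libraries. Its text also names SNRPB2, another gene, once as the knockdown, while the library's labels give SNRPB. Each group has 1 set of values, called a pool here, so values have neither replicates nor a standard deviation, and a test sets the reads of 1 pool against those of another without speaking to the conditions. Reads carry no described molecular identifiers and cannot be taken as separate molecules, so intervals and tests cover counting error only. In bulk RNA, fewer cells and less RNA per cell cannot be told apart.

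Most short-intron exons are thought to be recognised by pairing of splice sites across the intron (intron definition), whereas exons in long introns are mostly paired across the exon (exon definition). The U2 snRNP binds the branch point of the intron upstream, and SNRPA1 is its U2 A' protein. SNRPB encodes SmB/B', subunits of the Sm ring that U1, U2, U4 and U5 snRNPs share. When recognition of a short-intron exon fails, the exon can be skipped or a neighbouring intron can stay in the transcript. Both outcomes were read here, the first as the inclusion level and the second, in part, as reads that fit neither isoform.

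The sequences of 5 exons are shown because they carry the results described below: THYN1, AMZ2 and ST3GAL4 were included less in a knockdown pool than in the siCtrl pool, and KANSL3 and TOMM40L were included more. Capitals mark the exon. For THYN1 and AMZ2, the 50 intron bases before the exon, with the AG of the 3' splice site at their end, are in lower case. Sequences were read 5' to 3' from GENCODE 29 transcripts on hg38, and intron bases from annotated transcripts that retain the intron.
THYN1 exon with 50 intron bases before it, chr11:134248809-134249009, minus strand: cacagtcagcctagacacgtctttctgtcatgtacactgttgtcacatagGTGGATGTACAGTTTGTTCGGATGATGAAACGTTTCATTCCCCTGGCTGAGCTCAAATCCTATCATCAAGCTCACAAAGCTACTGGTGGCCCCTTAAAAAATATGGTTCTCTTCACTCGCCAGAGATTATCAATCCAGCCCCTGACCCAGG
AMZ2 exon with 50 intron bases before it, chr17:68250744-68250967, plus strand: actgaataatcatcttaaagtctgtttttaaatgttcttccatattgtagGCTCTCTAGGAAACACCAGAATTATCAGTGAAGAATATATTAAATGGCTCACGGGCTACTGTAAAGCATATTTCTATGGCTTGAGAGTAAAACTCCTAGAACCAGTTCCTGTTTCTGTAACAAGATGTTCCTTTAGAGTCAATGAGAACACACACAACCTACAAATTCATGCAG
ST3GAL4 exon, chr11:126408099-126408194, plus strand: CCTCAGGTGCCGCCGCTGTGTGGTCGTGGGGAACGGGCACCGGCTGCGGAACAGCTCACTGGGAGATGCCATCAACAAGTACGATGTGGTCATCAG
KANSL3 exon, chr2:96602116-96602338, minus strand: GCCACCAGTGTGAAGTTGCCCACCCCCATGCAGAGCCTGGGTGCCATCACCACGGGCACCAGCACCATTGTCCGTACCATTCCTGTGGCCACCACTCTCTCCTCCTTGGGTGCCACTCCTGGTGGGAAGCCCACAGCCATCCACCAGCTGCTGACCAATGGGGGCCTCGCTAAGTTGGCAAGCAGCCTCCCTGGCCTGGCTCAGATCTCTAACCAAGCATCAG
TOMM40L exon, chr1:161227636-161227737, plus strand: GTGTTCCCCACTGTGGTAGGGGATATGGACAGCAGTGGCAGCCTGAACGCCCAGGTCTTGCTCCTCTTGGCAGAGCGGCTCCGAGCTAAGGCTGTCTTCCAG

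Short introns of 4 events are shown next because the share of reads that fit neither isoform, counted over the whole event, changed in a knockdown pool. The events of RGS14, ACADVL and SETD6 also hold a downstream intron, of 283, 479 and 104 nt, that is not shown. Capitals mark the GT at the 5' splice site and the AG at the 3' splice site. The introns are 78 nt (RGS14), 118 and 80 nt (LRCH4), 93 nt (ACADVL) and 72 nt (SETD6) long, and the SETD6 intron is 80.6% G and C.
RGS14 upstream intron, chr5:177371397-177371474, plus strand: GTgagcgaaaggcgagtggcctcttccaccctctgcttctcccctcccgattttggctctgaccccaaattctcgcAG
LRCH4 upstream intron, chr7:100577155-100577272, minus strand: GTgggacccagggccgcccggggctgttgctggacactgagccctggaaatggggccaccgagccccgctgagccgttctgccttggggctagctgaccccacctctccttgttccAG
LRCH4 downstream intron, chr7:100577006-100577085, minus strand: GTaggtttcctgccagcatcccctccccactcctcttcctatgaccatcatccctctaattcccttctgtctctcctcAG
ACADVL upstream intron, chr17:7220831-7220923, plus strand: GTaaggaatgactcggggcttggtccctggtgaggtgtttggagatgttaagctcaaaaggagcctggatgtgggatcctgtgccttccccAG
SETD6 upstream intron, chr16:58515881-58515952, plus strand: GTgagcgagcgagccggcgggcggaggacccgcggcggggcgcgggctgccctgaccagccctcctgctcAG

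The knockdowns were visible in the pools. Reads over the skipped exons of SNRPA1 numbered 21.9 per 1000000 event reads in siSNRPA1 and 272 in siSNRPB, against 118 in siCtrl. Those of SNRPB numbered 337 in siSNRPA1 and 30.6 in siSNRPB, against 247 in siCtrl. Neither gene has a short-intron exon by this rule. Of the markers of the line, CD44 had 3434, 3542 and 3267 reads per 1000000 in siSNRPA1, siSNRPB and siCtrl, and ITGB1 and AXL were also read in all 3 pools. ESR1, PGR and CDH1, markers of luminal or epithelial cells, had at most 2.75 reads per 1000000 in any pool, while GATA3 had 15.3 to 22.1. VIM, CAV1, LAMB3, EPCAM, ERBB3 and PECAM1 have no event in these files.

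The short-intron exons had a median length of 122 nt, the same as other skipped exons of at least 61 and under 500 nt. Their introns had medians of 228 nt upstream and 212 nt downstream, against 2722 and 2561 nt for the other exons, and the shortest was 54 nt. Both introns were under 150 nt for 262 exons. Median exon GC content was 57.9% for 2280 short-intron exons with sequence, against 49.4% for 30295 other exons in that range of lengths. Of the short-intron exons, 57.3% lay wholly within coding sequence, against 44.9% of the others, and 7.26% lay in a 5' UTR, against 11.8%. A length that is a multiple of 3 was about as common in both (39.0% against 39.3%). They were more often on gene-dense chromosomes, with 11.5% on chromosome 17 (5.56% of the others), 10.4% on chromosome 19 (5.81%) and 8.24% on chromosome 16 (4.66%). Where an annotated transcript held the intron, GT and AG ended 942 of 950 upstream introns and 841 of 861 downstream introns. Each of 6 genes had 7 such exons, the largest number found: ACADVL, CLCN2, DPAGT1, QARS, SNHG5 and SPATA20.

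At the edges of the rule, PSMD6 has a 63-nt exon inside it, with inclusion levels of 0.04, 0.01 and 0.06 in siSNRPA1, siSNRPB and siCtrl, and DDX39A a 58-nt exon outside it, with 0.04, 0.03 and 0.08. F3 has a 495-nt exon inside (0.07, 0.08 and 0.09) and MRPL55 a 585-nt exon outside (0.79, 0.69 and 0.86). TNIP2, with an upstream intron of 500 nt, is inside (0.90, 0.97 and 0.98), and GLMP, with 509 nt, is outside (0.97, 0.95 and 0.99).

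The median short-intron exon that could be measured was included in most transcripts. In 979 exons with at least 20 informative reads in each of the 3 pools, the median inclusion level, the posterior mean that the authors obtained with MISO, a program that estimates exon inclusion, on a scale of 0 to 1, was 0.87 in siSNRPA1, 0.87 in siSNRPB and 0.92 in siCtrl. The level was over 0.9 for 46.4% of them in siSNRPA1, 43.8% in siSNRPB and 51.6% in siCtrl, and under 0.1 for 13.3%, 12.8% and 13.7%. The 12951 other exons of the same depth had medians of 0.84, 0.83 and 0.88. In siSNRPA1 the level of 151 of the 979 exons was lower than in siCtrl by at least 0.1 (15.4%, against 14.0% of other exons). That of 73 was higher by as much (7.46%, against 6.92%). In siSNRPB, 168 were lower by as much (17.2%, against 15.2%) and 101 were higher (10.3%, against 8.86%). The deepest of these exons were near full inclusion in every pool: an 80-nt exon of EIF4A1, the translation initiation helicase, had 7400 inclusion and 6 exclusion reads in siSNRPA1, 3052 and 0 in siSNRPB, and 4840 and 0 in siCtrl. A 161-nt exon of HNRNPC, which packages nascent RNA, had levels of 0.99, 0.99 and 1.00, and a 183-nt exon of ATP5F1B, the catalytic beta subunit of ATP synthase, 0.98, 0.99 and 0.98.

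With SNRPA1 knocked down, short-intron exons that changed were mostly skipped more. Of 419 tested, 56 fell and 17 rose, which is 13.4% and 4.06%, beside a background of 12.8% falls and 4.19% rises over all 6447 exons tested. The share among short-intron exons was therefore near that of skipped exons at large. Testing needed 20 or more informative reads per pool, and in the 2 pools together 5 or more of inclusion and 5 or more of exclusion. "Fell" and "rose" stand for an adjusted p under 0.05 and a level that differs by 0.1 or more, in the same direction as the reads. The adjusted p, called exact here, comes from Fisher's exact test with Benjamini-Hochberg adjustment over all exons tested. Falls had a median of -0.185 and rises of 0.160, against -0.210 and 0.180 over all exons tested. The 73 changed exons lie in 61 genes and 63 separate stretches, and 13 overlap a gene on the other strand.

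The largest falls in siSNRPA1 that rested on 50 or more informative reads per pool were in HARS2, a mitochondrial histidyl-tRNA synthetase, and next in SNHG5, a host gene of small nucleolar RNAs that makes no protein. Its 79-nt exon had a level of 0.45 in siSNRPA1 (86 inclusion and 36 exclusion reads) and 0.69 in siSNRPB (45 and 6), against 0.86 in siCtrl (52 and 0). Both falls passed, with exact adjusted p = 1.67e-05 in siSNRPA1 and 0.0366 in siSNRPB. In the authors' deposited table the Bayes factor, their support for a changed over an equal level, was 340 in siSNRPA1 but 0.88 in siSNRPB. The authors' interval in siCtrl, 0.67 to 0.97, overlapped that in siSNRPB (0.53 to 0.83) but not that in siSNRPA1 (0.36 to 0.54). Most reads of this event fitted neither isoform: 93.2% in siSNRPA1, 92.7% in siSNRPB and 96.4% in siCtrl. Exclusion reads were absent in siCtrl and present in both knockdown pools. A 238-nt form of this SNHG5 exon had more informative reads, 876 in siSNRPA1 and 961 in siCtrl. Its difference in siSNRPA1 was smaller, at -0.17 (exact adjusted p = 2.07e-10), and it was not called in siSNRPB.

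ST3GAL4 encodes a sialyltransferase that caps galactose on glycoproteins. The level of its 96-nt exon, shown above, was 0.45 in siSNRPA1 (60 inclusion and 8 exclusion reads) and 0.87 in siSNRPB (54 and 2), against 0.82 in siCtrl (60 and 0). The fall in siSNRPA1 was -0.37 (exact adjusted p = 0.027). The authors' intervals of 0.34 to 0.56 in siSNRPA1 and 0.65 to 0.96 in siCtrl did not overlap. Between the knockdown pools the level differed by -0.42, yet the reads did not pass (exact adjusted p = 0.229).

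RIT1, a Ras-related GTPase, had an exon at 0.61 in siSNRPA1 (43 exclusion reads among 192 informative) and 0.77 in siSNRPB (15 among 128), against 0.96 in siCtrl (3 among 166). It fell in both, with exact adjusted p = 3.35e-08 in siSNRPA1 and 0.00424 in siSNRPB. A 118-nt exon of CHTF8, a subunit of an alternative loader of the replication clamp, had 0.53 (210 and 60 reads) and 0.51 (82 and 19), against 0.84 in siCtrl (315 and 29). Its falls passed with exact adjusted p = 3.59e-05 and 0.0193. Neither exon had overlapping intervals between siCtrl and a knockdown pool.

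RNF4, a ubiquitin ligase that recognises SUMO chains, shows how level and reads can differ. Its 160-nt exon had a level of 0.64 in siSNRPA1 (443 inclusion and 13 exclusion reads) and 0.60 in siSNRPB (206 and 8), against 0.93 in siCtrl (230 and 0). Both falls passed (exact adjusted p = 0.0249 and 0.0107) although inclusion reads outnumber exclusion reads many times in each pool. The level is MISO's estimate and not the share of these reads, and what sets the 2 measures apart was not tested. In 24 of the 56 falls the share of inclusion reads among informative reads moved by under 10 percentage points, and in 19 of the 56 the siCtrl pool had 0 exclusion reads. With that share in place of the level, 47 exons fell and 30 rose. Among named exons this share did not change by 0.1 for RNF4, ILK, PIGQ, STK16 and TMX2 in siSNRPA1, nor for RNF4, AMZ2, AURKB, KANSL3, SLCO4A1, TRMT1 and UBTF in siSNRPB. Nor did it for 2 falls in comparisons where the rule did not name the exon. These were THYN1 in siSNRPA1 (86.7%, against 94.5% in siCtrl) and RIT1 in siSNRPB (88.3%, against 98.2% in siCtrl). In the authors' deposited table the Bayes factor, the support for a changed over an equal level, was under 10 for CDCA3, GSTM4, IRF7, the 100-nt exon of PRPF39, RFXANK, RNF4 and TMX2 in siSNRPA1, and for KANSL3, SNX17, SSBP4 and TOMM40L in siSNRPB.

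Other coding exons that fell in siSNRPA1 were in genes of varied function. TPRA1, a transmembrane protein, had a 61-nt exon at 0.60 in siSNRPA1 and 0.90 in siCtrl (exact adjusted p = 0.00285). ATRIP, the partner of the DNA damage kinase ATR, had an 81-nt exon at 0.71 (48 inclusion and 11 exclusion reads) and 0.98 in siCtrl (62 and 0). Emerin (EMD), a protein of the inner nuclear membrane, had a 105-nt exon at 0.79 and 0.98. In GSTM4 a 322-nt exon of a noncoding transcript was at 0.54 and 0.82, but the glutathione S-transferase mu genes are near-identical and its reads are uncertain.

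Among rises in siSNRPA1, a 111-nt coding exon of UBTF, the factor that drives transcription of ribosomal RNA genes, had the most reads. Its level was 0.81 in siSNRPA1 (705 inclusion and 53 exclusion reads) and 0.77 in siSNRPB (405 and 37), against 0.59 in siCtrl (360 and 81). Both rises passed (exact adjusted p = 1.74e-07 and 0.00013), and the exon overlaps a gene on the other strand, so its reads are uncertain. DDX39A, an mRNA export helicase, had a 185-nt exon of a transcript subject to nonsense-mediated decay (NMD) at 0.27 in siSNRPA1 (123 and 86 reads) and 0.16 in siSNRPB (31 and 43), against 0.14 in siCtrl (71 and 107). Only the first difference passed (exact adjusted p = 0.00204), and that between the knockdown pools missed (exact adjusted p = 0.0526). A 114-nt exon of TMX2, a thioredoxin-like membrane protein, rose to 0.86, against 0.72 in siCtrl (exact adjusted p = 0.00423). Its share of inclusion reads moved by 0.05, the Bayes factor in the authors' deposited table was 6.64, and the call was lost with reads thinned to the smallest pool (exact adjusted p = 0.0592) or divided by 2 (exact adjusted p = 0.0793). Smaller numbers of reads lay behind the rises in PIGQ (0.97 against 0.78), which acts in GPI anchor synthesis, RFXANK (0.90 against 0.75), a subunit of the activator of MHC class II genes, and DPH7 (0.28 against 0.06), a diphthamide synthesis enzyme. The call in RFXANK was lost with thinned reads (exact adjusted p = 0.313), divided reads (exact adjusted p = 0.24) and a Bayes factor of 3.04 in the authors' deposited table.

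**Figure D1:**
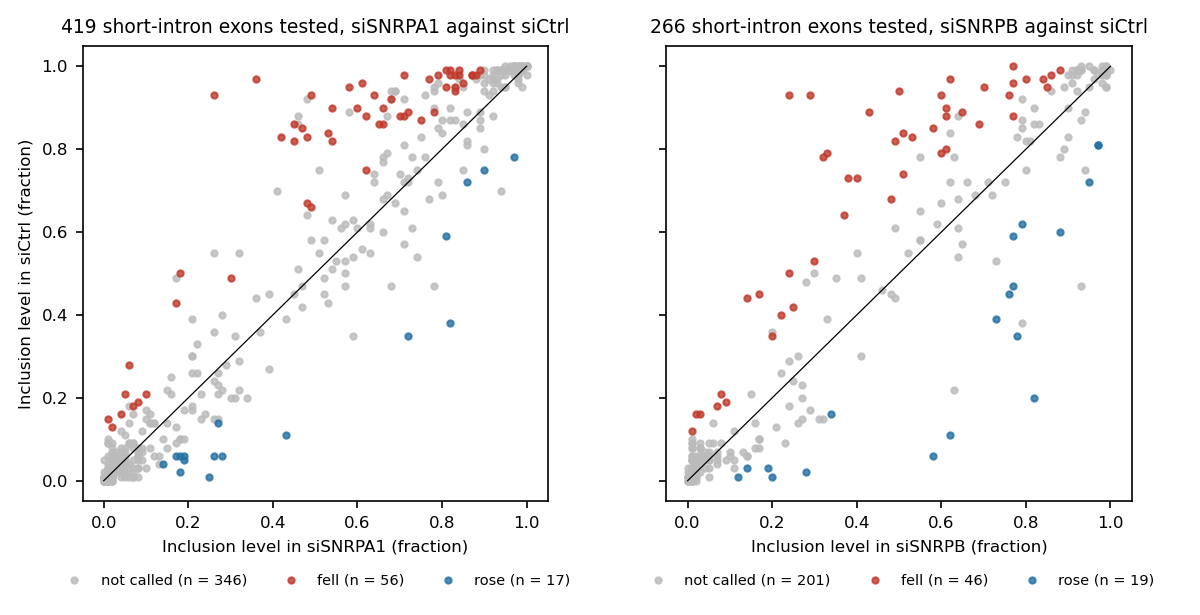
Inclusion level (fraction) of each tested short-intron exon in the knockdown pool (x axis) and the siCtrl pool (y axis), for siSNRPA1 on the left and siSNRPB on the right, with called exons in colour. Points above the diagonal were included less in the knockdown pool: 56 fell and 17 rose of 419 in siSNRPA1, and 46 fell and 19 rose of 266 in siSNRPB.

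With SNRPB knocked down, 46 of 266 tested exons fell and 19 rose, which is 17.3% and 7.14%, beside a background of 16.7% falls and 4.63% rises over 4236 exons. Falls had a median of -0.230 and rises of 0.230, against -0.22 and 0.20 over all exons tested. The siSNRPB pool is 1 library with fewer reads: the median short-intron exon had 25 informative reads there, 40 in siSNRPA1 and 31 in siCtrl. The 65 changed exons lie in 56 genes and 56 separate stretches. The largest fall in siSNRPB rested on few reads: a 100-nt exon of SH2B1, an adaptor of receptor tyrosine kinases, was at 0.49 in siSNRPA1 (34 inclusion and 13 exclusion reads) and 0.24 in siSNRPB (9 and 15), against 0.93 in siCtrl (43 and 0). It fell in both (exact adjusted p = 0.0011 and 1.42e-07).

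THYN1, thymocyte nuclear protein 1, had the largest fall in siSNRPB among exons with no fewer than 50 informative reads in that pool and in siCtrl. Its 151-nt exon, shown above, had a level of 0.72 in siSNRPA1 (319 inclusion and 49 exclusion reads) and 0.43 in siSNRPB (57 and 24), against 0.89 in siCtrl (310 and 18). The 3 authors' intervals, 0.65 to 0.78, 0.32 to 0.54 and 0.84 to 0.93, did not overlap. All 3 differences passed, with exact adjusted p = 0.00341 for siSNRPA1 against siCtrl, 3.88e-07 for siSNRPB against siCtrl and 0.00526 for siSNRPA1 against siSNRPB.

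AMZ2, a zinc metallopeptidase, had its 174-nt exon at 0.68 in siSNRPA1 (310 inclusion and 8 exclusion reads) and 0.50 in siSNRPB (74 and 6), against 0.94 in siCtrl (219 and 0). The difference of -0.44 in siSNRPB passed (exact adjusted p = 0.00195) and that of -0.26 in siSNRPA1 did not (exact adjusted p = 0.0668). A 227-nt 5' UTR exon of BANF1, a DNA-binding protein of the nuclear envelope, was at 0.48, 0.37 and 0.64 in siSNRPA1, siSNRPB and siCtrl and fell in siSNRPB (exact adjusted p = 0.000993). Its share of inclusion reads was 91.5%, 81.2% and 91.6% in the same order, and the difference in siSNRPA1 did not pass.

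In 3 further coding exons the siSNRPA1 pool was close to siCtrl while the siSNRPB pool was lower than both. STARD3, a cholesterol transfer protein of late endosomes, had a 112-nt exon at 0.89 in siSNRPA1 (215 inclusion and 7 exclusion reads) and 0.58 in siSNRPB (88 and 25), against 0.85 in siCtrl (131 and 8). MINK1, a kinase of the germinal centre family, had a 111-nt exon at 0.89 (217 and 10) and 0.65 (95 and 26), against 0.89 (339 and 19). PLSCR3, a phospholipid scramblase, had a 236-nt exon at 0.55 (210 and 3) and 0.30 (56 and 12), against 0.53 (146 and 2). Each fell in siSNRPB against siCtrl (exact adjusted p = 0.001, 1.71e-05 and 0.000224) and each was higher in siSNRPA1 than in siSNRPB (exact adjusted p = 3.65e-06, 3.83e-05 and 9.21e-05).

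Several coding rises in siSNRPB came with no exclusion read left in that pool. The 223-nt exon of KANSL3, a subunit of the NSL histone acetyltransferase complex, was at 0.66 in siSNRPA1 (196 inclusion and 12 exclusion reads) and 0.88 in siSNRPB (111 and 0), against 0.60 in siCtrl (138 and 8). For the 102-nt exon of TOMM40L, a pore protein of the mitochondrial outer membrane, the levels were 0.79 (126 and 14), 0.95 (55 and 0) and 0.72 (114 and 17). The 87-nt exon of TRMT1, a tRNA guanine methyltransferase, was at 0.71 (105 and 18), 0.97 (77 and 0) and 0.81 (125 and 12). Both other pools held exclusion reads for all 3 exons. The rises against siCtrl passed (exact adjusted p = 0.0328, 0.0136 and 0.017), and siSNRPA1 was lower than siSNRPB in each (exact adjusted p = 0.0392, 0.0451 and 0.00161). The share of inclusion reads in KANSL3 rose by 0.05 against siCtrl, and the Bayes factor in the authors' deposited table was 6.2 there and 6.37 in TOMM40L, both under 10. A 66-nt exon of SSBP4, of a single-stranded DNA-binding family, and a 173-nt exon of SLCO4A1, an organic anion transporter, rose in siSNRPB to 0.97, against 0.81 in siCtrl, and to 0.79, against 0.62. In the authors' deposited table SSBP4 had a Bayes factor of 6.37.

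**Figure D2:**
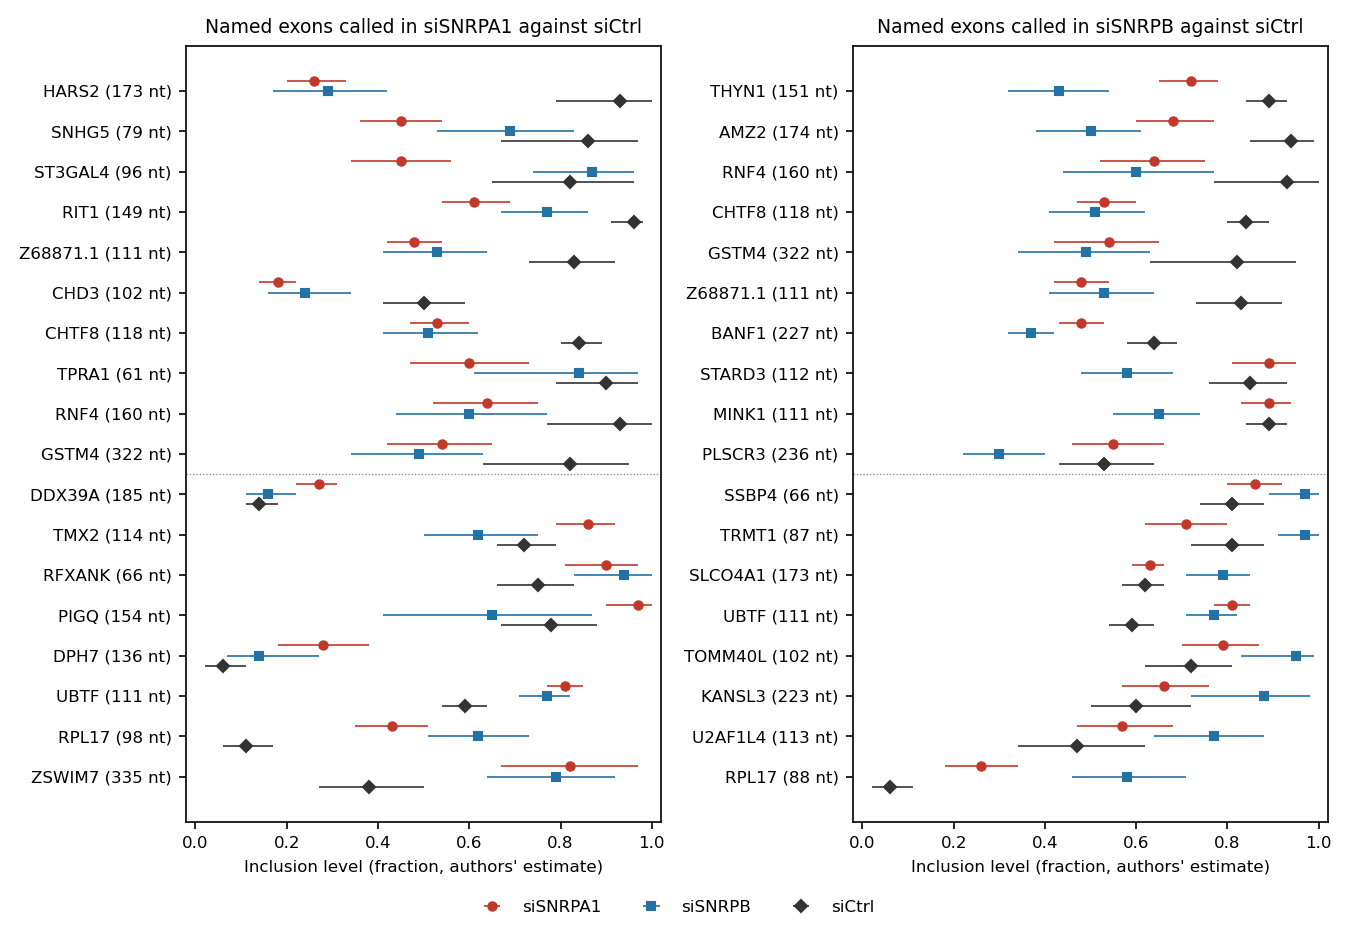
Inclusion level (fraction, x axis) of named short-intron exons that changed in siSNRPA1 (left) or siSNRPB (right) against siCtrl. Points are the 3 pools and bars the authors' intervals; falls are above the dotted line and rises below it, and for THYN1 the siSNRPB pool is at 0.43, against 0.89 in siCtrl.

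Set against each other directly, the knockdown pools differed in about as many exons one way as the other. Of 346 tested, 20 were lower and 18 higher in siSNRPA1 than in siSNRPB, which is 5.78% and 5.20%, beside a background of 6.39% and 8.30% over 5072 exons. With the share of inclusion reads in place of the level, the split was 18 lower and 35 higher. HIPK3, a nuclear kinase, had a 63-nt exon at 0.42 in siSNRPA1 (37 inclusion and 16 exclusion reads) and 0.90 in siSNRPB (75 and 4), with 0.83 in siCtrl (39 and 2). The difference between the knockdown pools passed (exact adjusted p = 0.0013), as did the fall in siSNRPA1 against siCtrl (exact adjusted p = 0.0139). CDCA3, which promotes entry into mitosis, had a 91-nt exon at 0.49 (175 and 45), 0.80 (91 and 2) and 0.66 (117 and 2), and siSNRPA1 was lower than siSNRPB (exact adjusted p = 0.000139) and than siCtrl (exact adjusted p = 3.99e-06). A 107-nt form of the same CDCA3 exon, which is coding, was at 0.82, 0.96 and 0.98. In the other direction AURKB, the mitotic kinase of the chromosomal passenger complex, had a 185-nt exon at 0.95 in siSNRPA1 (1755 and 24) and 0.85 in siSNRPB (670 and 30), with 0.95 in siCtrl (1027 and 12). The siSNRPB fall was at the smallest difference that counts, -0.10 (exact adjusted p = 0.000375).

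Inclusion calls were also counted by gene list, here and in the paragraphs on lists that follow, as a description with no test. Over all exons tested, 12.8% fell and 4.19% rose in siSNRPA1, and 16.7% fell and 4.63% rose in siSNRPB. The lists hold few tested exons, so their shares are loose beside these backgrounds. Genes of the splicing machinery held 27 tested short-intron exons in siSNRPA1, of which 4 fell and 2 rose. None of the falls was in coding sequence. A 335-nt exon of PRPF39, a U1 snRNP-associated protein, in an NMD transcript was at 0.07 in both knockdown pools, against 0.18 in siCtrl, and fell in both (exact adjusted p = 2.13e-05 and 0.000482). A 100-nt exon of the same gene was at 0.05, against 0.21 in siCtrl. A 162-nt exon of a noncoding transcript of PRPF4B, a kinase of the tri-snRNP, was at 0.06 in siSNRPA1, against 0.28 in siCtrl, with a gene on the other strand that makes its reads uncertain. RBM5, a splicing regulator, had a 70-nt exon that rose to 0.18, against 0.02. In siSNRPB, 2 of 17 fell, both forms of the PRPF39 exon, and 2 rose, both forms of an exon of U2AF1L4, a relative of the U2AF small subunit. Its 113-nt form was at 0.57 in siSNRPA1 and 0.77 in siSNRPB, against 0.47 in siCtrl, and its 67-nt form at 0.43 and 0.73, against 0.39.

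Chromatin and transcription genes had 3 falls and 1 rise of 29 in siSNRPA1, and 3 falls and 1 rise of 21 in siSNRPB. IRF7, the interferon regulatory factor, fell in siSNRPA1 (0.54 against 0.90 in siCtrl, with 32 and 30 informative reads). A 156-nt exon of KAT5, the Tip60 acetyltransferase, was at 0.47 in siSNRPA1 and 0.25 in siSNRPB, against 0.42 in siCtrl, and fell in siSNRPB (exact adjusted p = 0.00643). A 137-nt exon of SETD5, in an NMD transcript between introns of 94 and 95 nt, rose in both pools, to 0.25 and 0.20, against 0.01 in siCtrl (exact adjusted p = 1.28e-08 and 2.43e-07).

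In ubiquitin and proteasome genes 1 of 13 fell in siSNRPA1 and 3 of 8 in siSNRPB, with no rise in either. Besides RNF4 these were subunits of the proteasome regulatory particle. A 159-nt exon of PSMD6 was at 0.07 in siSNRPA1 and 0.02 in siSNRPB, against 0.16 in siCtrl, with 107 inclusion and 401 exclusion reads, 15 and 211, and 166 and 268 (siSNRPB exact adjusted p = 5.94e-18). PSMD4, which binds ubiquitin chains, had a 216-nt exon at 0.95 and 0.86, against 0.98. Ribosome, translation and tRNA synthetase genes had 3 falls and 2 rises of 29 in siSNRPA1 and 3 falls and 3 rises of 18 in siSNRPB, most of them pairs of forms of 1 exon in HARS2 and in RPL17. Those of RPL17 are uncertain, because it has near-identical copies and overlaps a gene on the other strand. MRPL43 of the mitochondrial ribosome added a 107-nt exon at 0.83 in siSNRPA1, against 0.95 in siCtrl (exact adjusted p = 0.00294), which was at 0.99 in siSNRPB.

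The other lists had few changes. Cell cycle and mitosis genes had 2 falls of 14 in siSNRPA1, both forms of the CDCA3 exon, and 1 of 7 in siSNRPB, AURKB. Metabolic enzyme genes had 3 falls and 1 rise of 17 in siSNRPA1 (GALT among the falls, and the rise in PIGQ) and none of 8 called in siSNRPB. In vesicle trafficking and lysosome genes none of 12 was called in siSNRPA1, and 2 of 8 fell and 1 rose in siSNRPB. Among the falls was a 70-nt exon of SNX17, a recycling adaptor, at 0.60 in siSNRPB, against 0.79 in siCtrl (exact adjusted p = 0.000742), with a Bayes factor of 1.28 in the authors' deposited table. In siSNRPA1 it was at 0.58, with 152 inclusion and 0 exclusion reads, against 162 and 0 in siCtrl, and was not tested. Cytoskeleton and adhesion genes had 1 fall of 20 in siSNRPA1 and none of 10 in siSNRPB. The fall was a 97-nt exon of integrin-linked kinase (ILK) at 0.89, against 0.99 in siCtrl (810 inclusion and 28 exclusion reads against 984 and 1, exact adjusted p = 2e-07), in a stretch shared with TAF10 on the other strand. Kinase and growth factor signalling genes had 1 fall of 5 in siSNRPA1 (STK16, 0.85 against 0.96) and none of 5 in siSNRPB. DNA replication and repair genes had 1 fall of 4 in siSNRPA1, ATRIP, and no tested exon in siSNRPB. Mitochondrial energy genes had no call among 12 in siSNRPA1 and 1 rise of 10 in siSNRPB, TOMM40L. In mRNA 3' end, export, exon junction and decay factors none of 5 was called in either knockdown. Median level differences of the lists lay between -0.04 and 0 in siSNRPA1 and between -0.055 and 0.08 in siSNRPB, against -0.02 over all tested short-intron exons in each.

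Within the short-intron exons, the few tested ones with the shortest introns had the largest share of falls. Over all exons tested, 12.8% fell in siSNRPA1 and 16.7% in siSNRPB. Of 39 tested with both introns under 150 nt, 10 fell and 1 rose in siSNRPA1 (25.6% falls), against 23 falls and 7 rises of 150 with 1 intron that short (15.3%) and 23 falls and 9 rises of 230 with neither. In siSNRPB the counts were 5 falls of 17 (29.4%), 21 of 105 and 20 of 144 (13.9%). The median level difference did not follow this order in siSNRPB, at -0.01 with both introns under 150 nt, -0.03 with 1 and -0.01 with neither. In siSNRPA1 it was -0.04, -0.01 and -0.015. The 10 exons in siSNRPA1 lay in CDCA3, CIRBP, DALRD3, DMAP1, EMD, GSTM4, IRF7, MRPL43, PRPF39 and RWDD2B, while the 5 in siSNRPB included 2 forms of 1 TRPT1 exon. In RWDD2B a 68-nt exon between introns of 87 and 116 nt was at 0.58 in siSNRPA1 (31 inclusion and 7 exclusion reads), against 0.95 in siCtrl (69 and 0). By the longer intron, falls in siSNRPA1 made up 11.9% of exons at 151 to 300 nt and 12.2% at 301 to 500 nt. Beyond 500 nt the falls in siSNRPA1 made up 9.87% of exons whose longer intron was 501 to 1000 nt and 12.8% of those over 10000 nt. In siSNRPB the shares were 18.8% at 151 to 300 nt and 15.4% at 301 to 500 nt, against 13.3% at 501 to 1000 nt, 20.8% at 5001 to 10000 nt and 18.4% over 10000 nt. These shares are a description, and the difference between them was not tested.

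Calls were also counted by place in the gene and by starting level, as a description with no test, beside backgrounds over all exons of 12.8% falls and 4.19% rises in siSNRPA1 and 16.7% and 4.63% in siSNRPB. In siSNRPA1, 36 of 199 exons within coding sequence fell and 4 rose (18.1% and 2.01%), against 7 falls and 4 rises of 87 in NMD transcripts and 5 falls and 4 rises of 41 in 5' UTRs. In siSNRPB, 29 of 120 coding exons fell and 9 rose (24.2% and 7.50%), against 8 falls and 2 rises of 58 in NMD transcripts and 2 falls and 5 rises of 34 in 5' UTRs. Depth differed with place: the median tested coding exon had 213 informative reads in siSNRPA1 and 159 in siCtrl, against 95 and 72 in NMD transcripts and 119 and 83 in 5' UTRs. It also differed with starting level, with 574 and 532 over 0.9 and 110 and 73.5 under 0.1. The part of depth in these counts was not tested. Of the called coding exons, 22 of 40 in siSNRPA1 and 21 of 38 in siSNRPB had a length that is a multiple of 3. Over all tested short-intron exons, of any place, this held for 175 of 419 and 112 of 266. The share among tested coding exons was not counted, so these counts do not show whether called ones differ in frame. Exons over 0.9 in siCtrl fell in 24 of 103 cases in siSNRPA1 and 14 of 49 in siSNRPB, and their level leaves no room for a rise of 0.1. Exons under 0.1 had 9 rises of 138 and 6 of 100, and no room for a fall. Of exons with a GC content up to 54.2%, 15.9% fell in siSNRPA1 and 18.5% in siSNRPB, and of those over 61.4%, 10.4% and 13.8%, with medians of 214 and 132 informative reads in siSNRPA1.

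**Figure D3:**
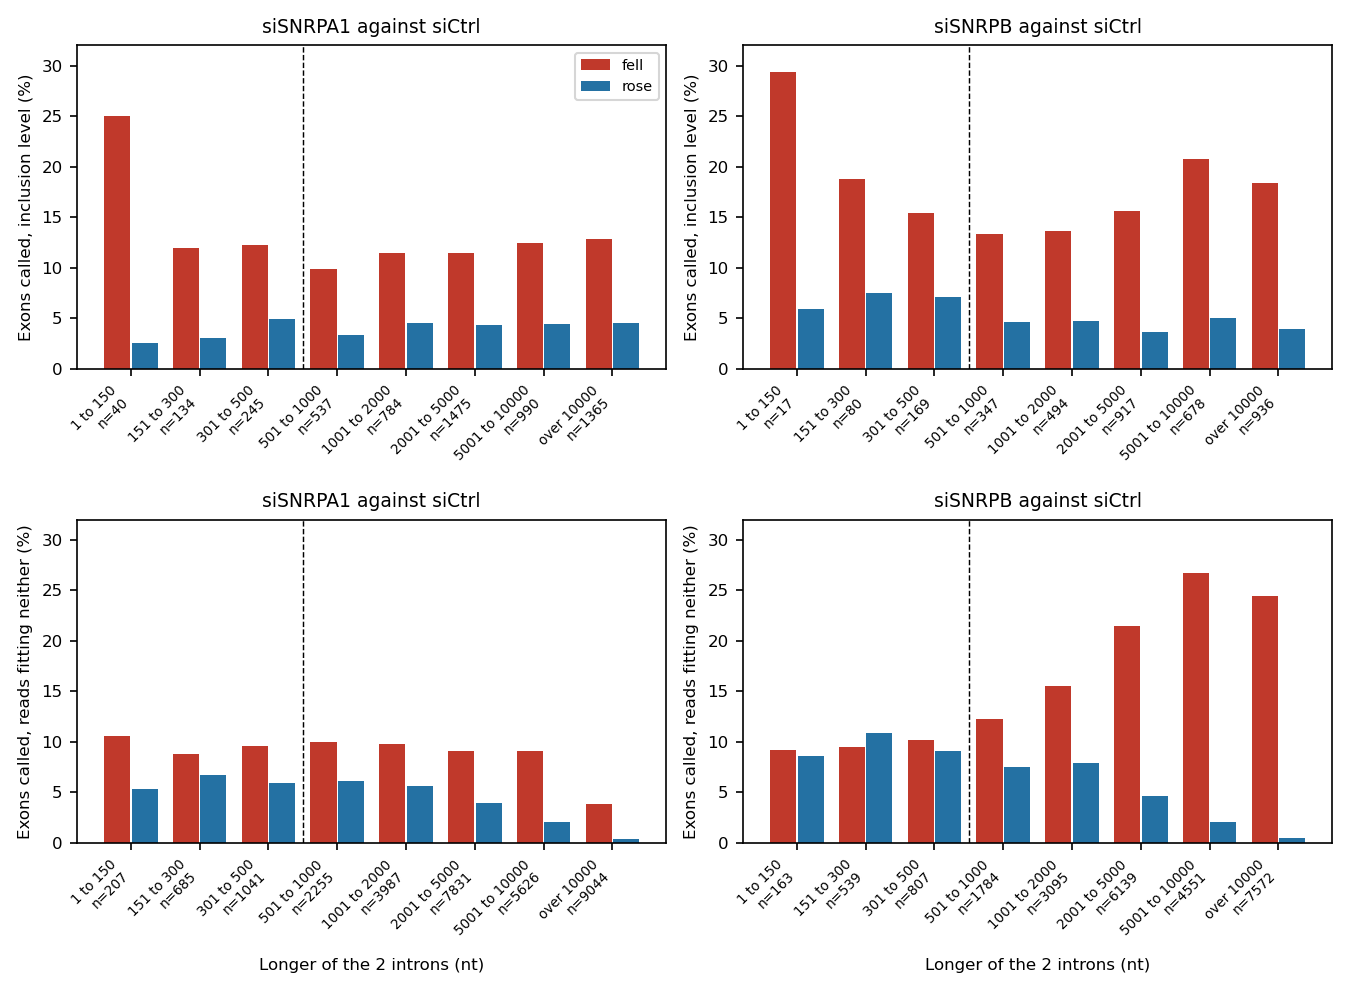
Percent of tested exons of at least 61 and under 500 nt called, by the length of the longer neighbouring intron (x axis, nt), with falls and rises, for inclusion and for reads fitting neither isoform, in siSNRPA1 and siSNRPB against siCtrl. The dashed line marks 500 nt; in the shortest bin 25.0% of 40 exons fell in inclusion in siSNRPA1 and 29.4% of 17 in siSNRPB.

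Reads that fit neither isoform can include reads inside the introns, but also reads of another form of the same exon. For the 161-nt and 158-nt forms of the HNRNPC exon, 3249 and 4611 of the same 16757 reads in siSNRPA1 fitted neither. A change in their share is therefore not a measure of retained introns alone. The share was read as a second measure of each event with at least 50 reads of any class in both pools. Over the 1933 short-intron exons with that depth in siSNRPA1 and siCtrl, the median share was 46.6% in siSNRPA1 and 47.4% in siCtrl, against 73.8% and 76% over all exons. Over the 1509 with that depth in siSNRPB and siCtrl, it was 41.6% in siSNRPB and 41.5% in siCtrl, against 64% and 69.7% over all exons. In siSNRPA1, 182 of 1933 fell by at least 10 percentage points with an adjusted p under 0.05 in Fisher's exact test and 119 rose. That is 9.42% and 6.16%, beside a background of 7.80% and 3.04% over 36645 exons. In siSNRPB, 148 of 1509 fell and 146 rose, or 9.81% and 9.68%, beside a background of 21.1% and 3.76% over 29487 exons. The median difference was -0.481 points in siSNRPA1 (-0.969 over all exons) and -0.607 points in siSNRPB (-3.10 over all exons).

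The drop of this share in siSNRPB was larger beside introns over 2000 nt than beside short ones. In exons whose longer intron was 1 to 150, 151 to 300 and 301 to 500 nt, the median difference was -0.142, -0.877 and -0.519 points. With 501 to 1000 nt it was -0.994, with 2001 to 5000 nt -3.00, with 5001 to 10000 nt -4.40 and over 10000 nt -4.10 points. Falls made up 9.20% of exons in the shortest bin, 26.7% at 5001 to 10000 nt and 24.5% in the longest, and rises 8.59%, 2.11% and 0.475%. In siSNRPA1 the medians stayed between -1.46 and -0.114 points across the bins. The share itself also runs with length: it was 38.8% in siSNRPB and 37.0% in siCtrl in the shortest bin, and 84.8% and 90.3% in the longest, and depth runs with it too, with a median of 230 and 502 reads of any class per exon in siSNRPB. The part of share and depth in these differences was not tested.

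**Figure D4:**
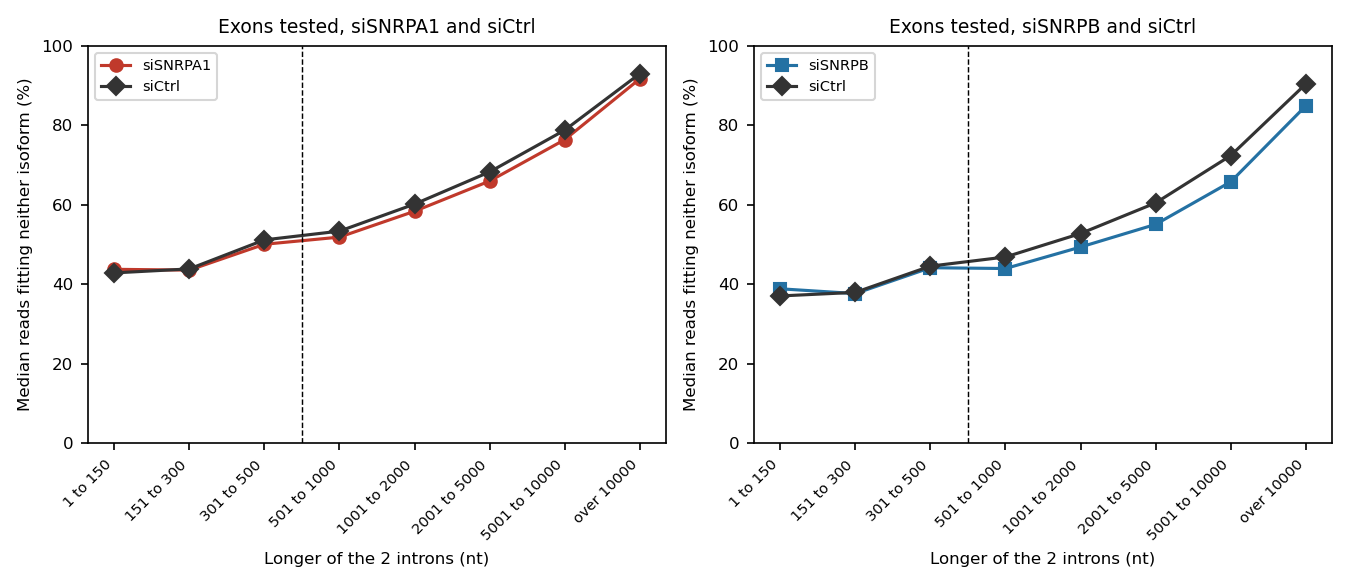
Median percent of reads that fit neither isoform (y axis) by the length of the longer neighbouring intron (x axis, nt), in each knockdown pool and in siCtrl. In siSNRPB the median is 84.8% over 10000 nt, against 90.3% in siCtrl, while up to 500 nt the pools lie within a few points of each other.

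Single events showed larger changes in both directions, counted over both introns together, and which intron the reads lay in was not tested. Beside a 115-nt exon of RGS14, a regulator of G protein signalling, 5.16% of reads fitted neither isoform in siSNRPA1 (13 of 252) and 5.61% in siSNRPB (6 of 107), against 31.5% in siCtrl (53 of 168). Both falls passed (exact adjusted p = 2.27e-11 and 5.47e-07), and the Wilson intervals, 3.04% to 8.62% and 2.60% to 11.7% against 25.0% to 38.9%, did not overlap. The upstream intron is the 78-nt one shown above, and the downstream one has 283 nt. Beside a 69-nt exon of LRCH4, a leucine-rich repeat protein, the share was 63.0% in siSNRPA1 (114 of 181) and 71.7% in siSNRPB (38 of 53), against 91.6% in siCtrl (98 of 107), and fell in both (exact adjusted p = 6.07e-07 and 0.00502). An 81-nt exon of NCKIPSD, an actin regulator, had 32.3%, 39.8% and 57.1%, with both falls passing (exact adjusted p = 1.78e-06 and 0.0255).

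ACADVL, the very-long-chain acyl-CoA dehydrogenase of mitochondrial fatty acid oxidation, moved the other way. Beside its 135-nt exon the share was 57.2% in siSNRPA1 (652 of 1139) and 72.0% in siSNRPB (226 of 314), against 42.3% in siCtrl (382 of 904). Both rises passed (exact adjusted p = 6.18e-10 and 2.32e-18), and the 3 Wilson intervals did not overlap. A 66-nt ACADVL exon that lies before it in the gene was included less in siSNRPB, at 0.91 in siSNRPA1 (547 inclusion and 27 exclusion reads) and 0.76 in siSNRPB (115 and 21), against 0.93 in siCtrl (680 and 30), which passed (exact adjusted p = 9.46e-05). SETD6, a lysine methyltransferase, had 62.7% in siSNRPA1 and 76.6% in siSNRPB, against 48.1% in siCtrl beside its 145-nt exon, and only the rise in siSNRPB passed (exact adjusted p = 0.0001, against 0.0586 in siSNRPA1). SPATA20 rose in both pools, to 39.9% and 55.9%, against 29.6%.

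Rises in siSNRPA1 were largest in NBEAL2, a protein of platelet alpha granules, with 79.6% (86 of 108) in siSNRPA1 and 81.6% (31 of 38) in siSNRPB, against 45.1% (82 of 182) in siCtrl beside its 159-nt exon. The rise in siSNRPA1 passed (exact adjusted p = 1.12e-07), and siSNRPB had too few reads to be tested. ATG16L2, a relative of the autophagy protein ATG16L1, had 60.5% and 61.3%, against 36.8% (siSNRPA1 exact adjusted p = 0.00116), and NR1H3, the liver X receptor alpha, 77.5% in siSNRPA1, against 53.3% in siCtrl (exact adjusted p = 0.00224). HES6, which rose in siSNRPA1 to 51.7%, against 21.2%, and LAT, which fell to 57.8%, against 85.2%, overlap a gene on the other strand and are uncertain, as is AC137932.2, which rose in siSNRPB to 81.5%, against 55.8%.

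In 3 genes the share was lowest in siSNRPB. ESRP2, a splicing regulator of epithelial cells, had 17.4% in siSNRPA1 (53 of 305) and 0.87% in siSNRPB (1 of 115), against 28.3% in siCtrl (78 of 276) beside its 166-nt exon, and both falls passed (exact adjusted p = 0.00837 and 2.1e-11). A 145-nt exon in a noncoding transcript of TP53BP1, a DNA damage response protein, had 145 of 333 reads that fit neither isoform in siSNRPA1 and 11 of 100 in siSNRPB, against 96 of 238 in siCtrl (siSNRPB exact adjusted p = 3.34e-07). SPNS1, a lysosomal lipid transporter, had 40.7%, 21.3% and 48.3% (siSNRPB exact adjusted p = 1.24e-07). All of these rest on 1 siSNRPB library, with no replicate to set them against.

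**Figure D5:**
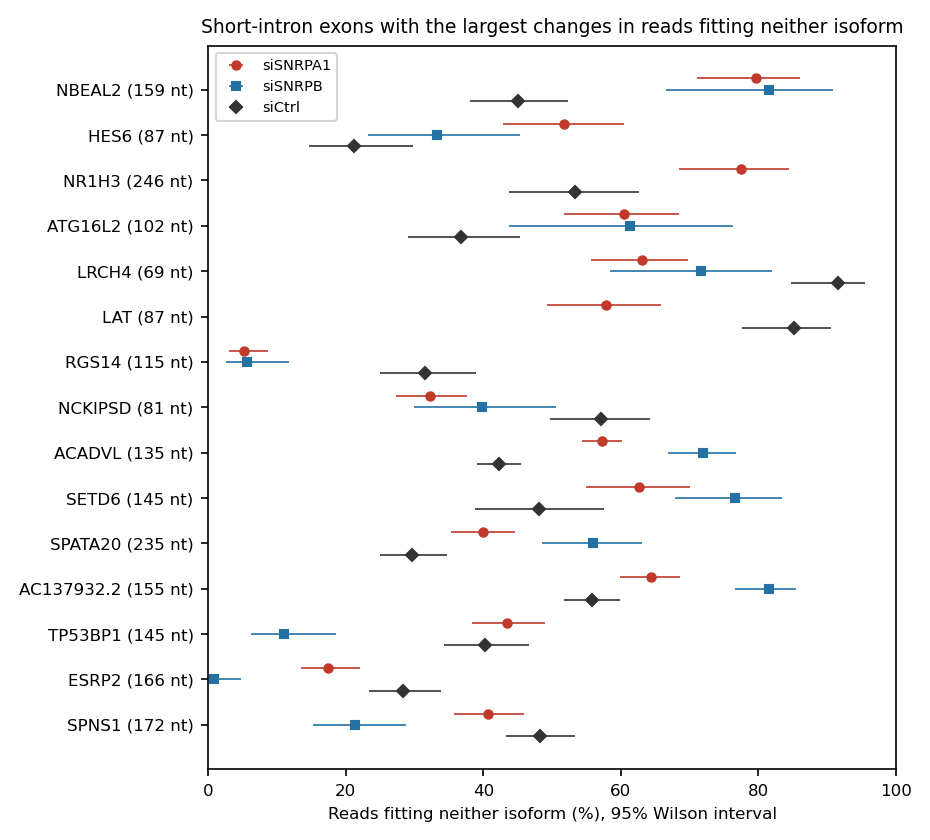
Percent of reads that fit neither isoform (x axis) for the short-intron exons with the largest changes, in the 3 pools, with 95% Wilson intervals as bars. RGS14 is at 5.16% in siSNRPA1 and 5.61% in siSNRPB, against 31.5% in siCtrl, and ACADVL at 57.2% and 72.0%, against 42.3%.

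The counts by gene list stand beside the backgrounds over all exons of 7.80% falls and 3.04% rises in siSNRPA1 and 21.1% and 3.76% in siSNRPB. Splicing factors had 7 falls, in 4 genes, and no rise of 46 in this share in siSNRPA1, and 3 falls and 2 rises of 43 in siSNRPB. Ribosome, translation and tRNA synthetase genes had 5 falls and 6 rises of 73 in siSNRPA1 and 4 falls and 9 rises of 72 in siSNRPB. Ubiquitin and proteasome genes had 8 falls and 2 rises of 51, and 8 falls and 3 rises of 47. Chromatin and transcription genes had 11 falls and 6 rises of 119, and 10 falls and 7 rises of 97. Kinase and growth factor signalling genes had 6 falls and 4 rises of 38, and 7 falls and 1 rise of 33. DNA replication and repair genes had 5 falls and 5 rises of 38, and 4 of each of 29. Metabolic enzyme genes had 4 falls and 2 rises of 58, and 6 falls and 7 rises of 56. Vesicle trafficking and lysosome genes had 4 falls and 5 rises of 52, and 3 falls and 6 rises of 43. Mitochondrial energy, cell cycle, cytoskeleton, and mRNA 3' end and decay genes had at most 7 calls each.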

How the data were processed

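Skipped-exon events were measured by RNA sequencing of MDA-LM2 cells, with libraries made with a SMARTer stranded total RNA kit (pico v2), per the labels' protocols. The submitters' processing notes name STAR 2.7 and hg38, with no role. Column names are those of MISO, which estimates exon inclusion; not given in the sources used here are its version and settings, strand included, and the way libraries were pooled. Inclusion is given as a fraction between 0 and 1, deposited by the authors to 2 decimals with bounds of an interval of unstated width. Each event carries, per the file headers, whole read counts that fit inclusion only, exclusion only, both or neither. The authors also deposited, for each knockdown against siCtrl, a Bayes factor, which is the ratio of support for changed to support for equal inclusion, and a difference in level, a score from -1 to 1, which was checked to equal that of the summaries within 0.01 for 44653 of 44653 events in siSNRPA1 and 38112 of 38112 in siSNRPB. Of per-sample columns, 0 stayed unused.

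The exons and the gene lists were chosen with earlier results of these data known. Events with a middle exon of at least 61 and under 500 nt and both introns of at most 500 nt (2451 events) were reduced to 1 per middle exon; for 69 exons an event with longer introns had more reads. Coordinates are on hg38, counted from 1. Gene names, places and sequences came from GENCODE 29. Of the exons, 315 overlap a gene on the other strand and are uncertain, as are genes with near-identical copies.

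The samples of a group form 1 pool, and the depth per pool was 626353, 251845 and 466391 informative reads over these exons in siSNRPA1, siSNRPB and siCtrl. Fisher's exact test (two-sided) was run per exon on inclusion and exclusion reads over the whole table, and on reads fitting neither isoform against all others, with Benjamini-Hochberg adjustment over all exons tested. Shares have 95% Wilson intervals. The tests were tried on simulated reads without variation between libraries. For inclusion the simulated calls used the read share in place of the authors' level, so the call rule on that level was not checked. Named exons are, for each knockdown, the 10 largest falls and 8 largest rises at 50 or more informative reads in both pools, up to 2 per gene list (12 lists, by symbol pattern), the 5 largest differences each way between the knockdowns, the 5 deepest, and the 4 largest changes each way in reads fitting neither isoform at 100 or more reads. Of the names outside this rule, SH2B1, EMD, GALT, RBM5, KAT5, PSMD4, MRPL43, RWDD2B, TRPT1, the coding form of CDCA3, the 66-nt exon of ACADVL and the other short-intron genes listed were chosen after their values were seen. Some exons that the rule named or the lists counted are not reported here by name. Alternatives changed 1 choice at a time: the minimum depth, the minimum difference, the read share for the level, the authors' Bayes factor, thinned or divided reads, the intron limit, and leaving out exons that overlap another gene or keeping 1 per gene. Computation was in Python 3.11.15 (pandas 2.3.3, numpy 2.4.6, scipy 1.17.1, matplotlib 3.10.9).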

Additional observations from a re-analysis of the deposited data

How the results depend on the processing

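Inclusion calls numbered 73 for siSNRPA1 against siCtrl, 65 for siSNRPB against siCtrl and 38 for siSNRPA1 against siSNRPB, and calls on reads fitting neither isoform 301 and 294. A level difference of at least 0.2 left 32, 36 and 23 inclusion calls, and one of 20 percentage points left 76 and 78 of the others. Dividing all reads by 2 left 22, 21 and 14, and 106 and 132, since fewer reads were tested. Thinning reads to the smallest pool left 25 and 40. A minimum of 50 informative reads left 41 in siSNRPB. The authors' deposited table, at a Bayes factor of at least 10, gave 187 and 174. Introns of at most 300 nt gave 31, 27 and 18, and 142 and 140; introns of at most 1000 nt gave 146, 128 and 84, and 671 and 666, because fewer or more exons qualify. The read share in place of the level gave 77, 76 and 53 calls, with 47 falls and 30 rises in siSNRPA1, 58 and 18 in siSNRPB, and 18 and 35 between the knockdowns; the cause was not tested. Leaving out exons with a gene on the opposite strand gave 60, 59 and 34, and 1 exon per gene 49, 47 and 26. Among results on named exons the call was lost by 18 at a difference of 0.2, 23 with divided reads, 13 with thinned reads, 12 with the read share and 11 with the Bayes factor. Named exons that divided or thinned reads left too shallow to test are not in these counts, so more calls were lost there. In siSNRPA1 these included ST3GAL4, PIGQ, PRPF4B, the 100-nt exon of PRPF39 and IRF7 in both settings, and ATRIP with thinned reads. The level difference is the same deposited value under all settings but the read share, where 51 kept the call. No direction could turn there either, because a call already required level and reads to move the same way. Changed intron limits leave a named exon's values as they are, so they say nothing of its stability. Thinning ended the calls in DDX39A, DPH7, GSTM4, RFXANK, RNF4, STK16 and TMX2 in siSNRPA1, in CHD3, RNF4, STARD3, TRMT1 and U2AF1L4 in siSNRPB, and in THYN1 between the knockdowns. Depth limits what can be seen, most in siSNRPB, where 1006 of 1811 exons had 20 informative reads. No paired analysis was possible because each group is 1 pool with no replicate numbers, and for the same reason no library could be left out.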
